A study of Saccharomyces cerevisiae with 19 samples.

Results

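Sir3 binding was compared between yeast cells that overexpressed the point mutant Sir3-A2Q and cells that overexpressed wild-type Sir3 from the same promoter. Of the 19 ChIP-chip arrays of the series, in 11 groups, 4 entered this comparison. They were the 2 arrays of strain yAT1256 (pGPD-SIR3-A2Q) and the 2 arrays of strain yAT1254 in steady growth (pGPD-SIR3). The study varied the amount of Sir3 and followed how far it spread from the chromosome ends, and its design used the A2Q mutant to look at telomere clustering. Cells grew exponentially in the rich medium YPD and were fixed with formaldehyde. DNA precipitated with a polyclonal antibody against Sir3 was labelled in Cy5 and whole-cell extract in Cy3, and both were hybridised to tiling arrays.

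Strains yAT1254 and yAT1256 shared every labelled allele other than the one at SIR3. Both carried ade2-1::ADE2 and the reporter construct adh4::URA3-4xUASG-(C1-3A)n, inserted at ADH4 near the left end of chromosome 7 with telomeric repeats. By the labels, each also had PPR1, which encodes an activator of URA3, disrupted as ppr1{delta}::HIS3, and a fluorescently tagged Rap1 from rap1::GFP-RAP1(LEU2). The SIR3 locus read sir3::GPD-SIR3(NAT) in yAT1254 and sir3::GPD-sir3-A2Q(NAT) in yAT1256. The 2 WT arrays of strain yAT191, which carries the shared alleles with SIR3 unaltered, are given beside the others as a level and were not tested here. The constitutive GPD promoter stands before SIR3 in both overexpressing strains. The arrays measured neither the amount of Sir3 protein nor the A2Q change itself.

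In budding yeast, Sir2, Sir3 and Sir4 form the complex that silences the mating cassettes HML and HMR and genes next to telomeres. Rap1 and silencer-binding proteins recruit it, Sir2 deacetylates histone tails, and Sir3 and Sir4 bind the deacetylated nucleosomes, which lets the complex spread. Sir3 contacts the nucleosome through its N-terminal BAH domain, and the alanine left at its N terminus after removal of methionine is normally acetylated. In A2Q that alanine is replaced by glutamine.

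All levels below are log2 ratios of precipitated over input DNA, centred on the median chromosomal probe of the array. A level of 0 therefore marks a typical probe and does not mean that Sir3 was absent. Between 41014 and 41270 of 41480 chromosomal probes had a ratio on the 4 arrays. The median ratio before centring was 0.611 and 0.930 on the A2Q arrays and 0.141 and 0.405 on the pGPD-SIR3 arrays, so a difference in absolute signal cannot be read from these files. The highest centred probe reached 4.80 and 5.32 on the A2Q arrays, 7.65 and 7.30 on the pGPD-SIR3 arrays, and 8.16 and 8.67 on the WT arrays. Slide identity was inferred from the names of the deposited files alone, which place both A2Q arrays on 1 slide with pGPD-SIR3 replicate 2, and pGPD-SIR3 replicate 1 on another. The labels do not say whether replicate arrays came from separate cultures. The p-values therefore reflect only how much the arrays varied, and that variation may be technical. Tests used limma across all 19 arrays with Benjamini-Hochberg adjustment over all features of a kind, two-sided, at 0.05.

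Pooled over chromosome ends, Sir3-A2Q signal was largely limited to the first 2 kb and to isolated probes further in. Wild-type Sir3 from the same promoter covered wide domains there. The first bin of 1 kb held 21 probes and the next 24, and 9 of the 32 ends had a probe within 1 kb. Successive bins thus average different ends, and a limit of 2 kb could not be read at every end. Distances at right ends run to the outermost annotated gene or probe and not to the telomere. They can be too short, so the first bins may mix probes at unlike true distances and the 2 kb is approximate. In the first 1 kb from the ends, the mean level was 2.25 and 2.40 on the A2Q arrays, 6.19 and 5.87 on the pGPD-SIR3 arrays, and 6.16 and 7.06 on the WT arrays. In the bin from 2 to 3 kb the A2Q arrays were at 0.27 and 0.32, the pGPD-SIR3 arrays at 6.57 and 6.25, and the WT arrays at 3.78 and 3.74. Both A2Q arrays were below both WT arrays and both pGPD-SIR3 arrays in these 2 bins. The A2Q mean first dropped below 1 in the bin that starts at 1 kb on both arrays. For pGPD-SIR3 the same level was first crossed in the bin at 26 kb on both arrays, and for WT at 17 and 13 kb. These bins include HML and HMR, and distances on the left arm of chromosome 7 ignore the telomeric repeats at ADH4. WT was at 5.88 on that arm from 15 to 20 kb. On the left arm of chromosome 3 it was at 7.19 from 10 to 15 kb, around HML. The crossing distances are therefore not those of natural ends alone. A second, lower A2Q maximum of 0.68 and 0.64 lay in the bin from 5 to 6 kb.

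**Figure D1:**
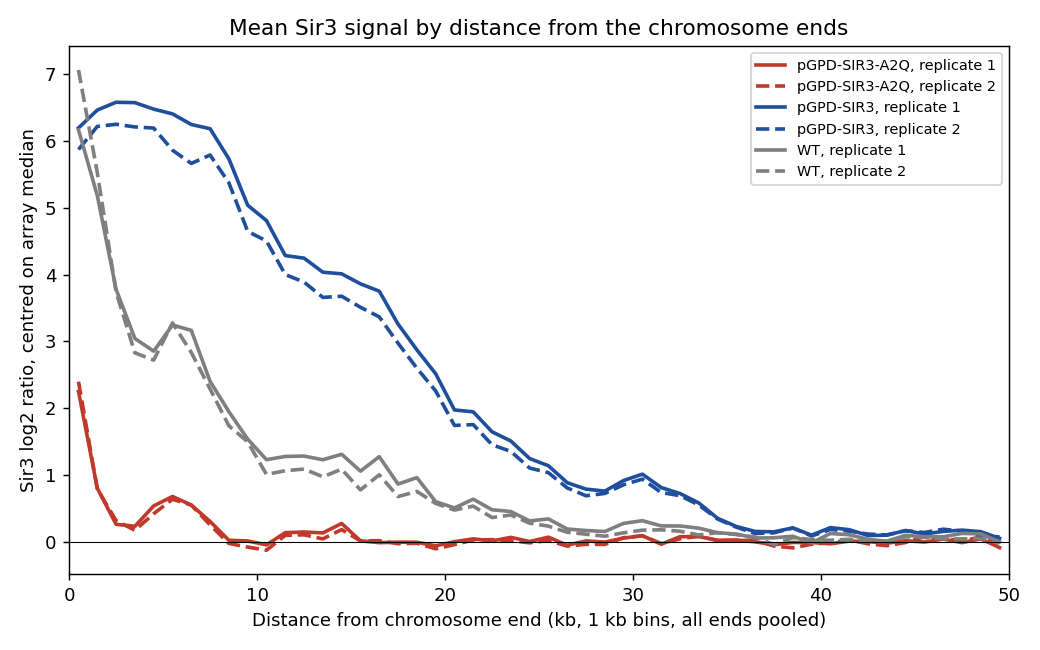
Mean Sir3 level (log2 ratio centred on the array median, y axis) in 1 kb bins by distance from the chromosome end (x axis, kb, all ends pooled) on each of the 6 arrays. Both A2Q lines fall below 1 in the bin at 1 kb, whereas both pGPD-SIR3 lines stay above 1 until the bin at 26 kb.

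The difference was tested in 144 zones, which are the means of at least 3 probes in distance windows at single chromosome ends. Sir3-A2Q was lower in 111 zones (77.1% of all tested) and higher in 0 (0% of all tested), and limma gave 112 zones lower and 0 higher at an unadjusted p under 0.05. Within the inferred slide that held both groups, 116 zones were lower and 0 higher by the same adjusted threshold. That fit set both A2Q arrays against 1 pGPD-SIR3 array (1 residual degree of freedom), so its spread came from the A2Q pair alone and its counts are not independent support. Every one of the 10 zones within 5 kb and the 21 zones from 5 to 10 kb was lower, with median differences of -5.93 and -5.24. From 10 to 15 kb 20 of 22 zones were lower, and from 15 to 20 kb 24 of 28. The share then dropped to 22 of 31 zones from 20 to 30 kb, with a median difference of -0.64, and to 14 of 32 from 30 to 50 kb, with -0.14. Averaged over zones, the A2Q level was 0.53 within 5 kb, 0.45 from 5 to 10 kb and 0.27 from 10 to 15 kb. The corresponding pGPD-SIR3 levels were 6.35, 5.65 and 4.41, and those of WT 3.76, 3.00 and 1.67. The averages from 10 to 15 kb include the zone around HML, at 2.02 in A2Q, 6.21 in pGPD-SIR3 and 7.19 in WT.

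The zone with the largest fall was the right end of chromosome 6 from 5 to 10 kb. The A2Q arrays there were at -0.21 and -0.31, the pGPD-SIR3 arrays at 6.46 and 6.09, and the WT arrays at 1.58 and 0.93. The groups did not overlap, and the difference was -6.54 (SE 0.45, adjusted p = 1.51e-06 by limma). The next 4 zones were 3R from 15 to 20 kb (-6.51), 15L from 5 to 10 kb (-6.46), 5L from 10 to 15 kb (-6.43) and 3R from 5 to 10 kb (-6.34), where a number and L or R name a chromosome and its left or right end. In each of these 5 zones the A2Q mean was between -0.26 and 0.29.

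Covered length was counted per array as the number of 1 kb bins within 50 kb of an end that exceeded the internal background by 3 scaled median absolute deviations. Of 1333 bins, 70 and 68 kb were covered on the A2Q arrays, 555 and 527 kb on the pGPD-SIR3 arrays, and 312 and 234 kb on the WT arrays. The mean was 69.0 ± 1.41 kb for A2Q and 541 ± 19.8 kb for pGPD-SIR3 (SD, n = 2 each). These lengths depend on the threshold, and at 2 scaled deviations they were 112.5 and 625 kb. The groups did not overlap, but an exact permutation test of 2 against 2 arrays cannot go below p = 0.333. The mean for pGPD-SIR3 was above that for A2Q at 32 of 32 ends. Per end, the median was 2.0 kb for A2Q and 18.25 kb for pGPD-SIR3. The A2Q maximum was 5.0 kb at 3L, the end that holds HML, and 3 ends (2R, 10L and 16L) had 0 covered bins on both A2Q arrays. For pGPD-SIR3 the length ran from 3.5 kb at 10R to 34.5 kb at 1L.

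**Figure D2:**
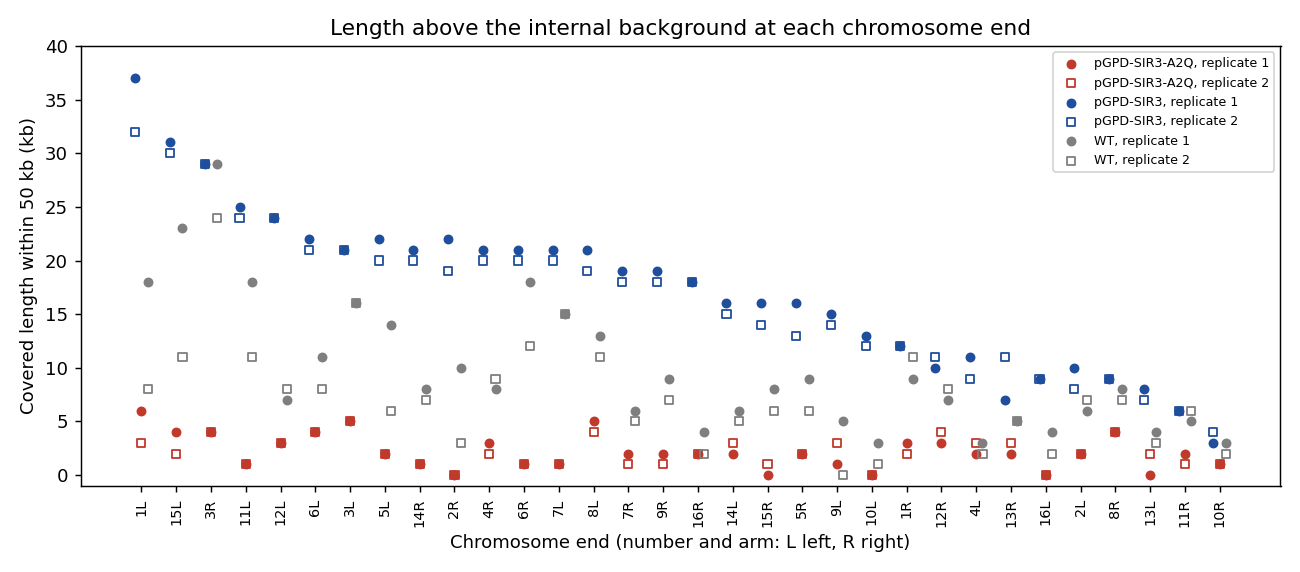
Covered length (kb within 50 kb, y axis) at each of the 32 chromosome ends (x axis, ordered by the pGPD-SIR3 mean) on each array, with filled circles for replicate 1 and open squares for replicate 2. The A2Q means reach at most 5.0 kb, and the pGPD-SIR3 mean is above the A2Q mean at 32 of 32 ends.

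The fall of the signal inward from an end was tested as a gradient. That is the mean within 2 kb of the outermost probe measured on all 19 arrays minus the mean 5 to 15 kb further in. It could be fitted at 17 ends, and was lower for A2Q at 13 (76.5% of all tested) and higher at 3 (17.6%). Such a difference grows with the height of the signal, so a lower A2Q gradient need not be a flatter shape. At 4R, counted as lower, A2Q fell from 1.98 to -0.11 and pGPD-SIR3 from 5.94 to 2.77. At 1L the A2Q gradient was 3.40 and 3.74, against 0.92 and 0.32 for pGPD-SIR3. Sir3-A2Q was at 3.47 in the outer window of 1L and -0.10 in the inner one, whereas pGPD-SIR3 was at 5.96 and 5.34. The difference in gradient was 2.95 (SE 0.40, adjusted p = 4.98e-05 by limma), with the A2Q inner window at the level of a typical probe. The other steeper A2Q gradients were at 15L (1.77 against 0.13, adjusted p = 0.00185) and 6R (0.89 against 0.03, adjusted p = 0.0426). Leaving out any 1 of the 4 arrays left 2 of these calls.

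The windows do not lie at like distances, since that probe was up to 19.6 kb (9L) from its end. At 11R the probe itself set the position of the end, so its distance of 0.023 kb is not one to the telomere. The largest difference towards a lower A2Q gradient was at 13L, where that probe lies 8.92 kb from the end. The gradient there was 0.14 and -0.01 on the A2Q arrays and 5.25 and 4.99 on the pGPD-SIR3 arrays, a difference of -5.06 (adjusted p = 2.31e-06 by limma). The next were 11R (-4.19), 9L (-4.05), 10L (-4.04) and 2L (-2.81). The windows at 9L and 10L start 19.6 kb in and that at 2L 5.86 kb in. At 2L the A2Q level was 3.16 in the outer window and 0.09 in the inner one, so the A2Q signal also fell steeply there. The gradient at 3R did not pass the test, with a difference of 0.02. The A2Q windows there were at 0.08 and 0.20, and the pGPD-SIR3 windows at 6.28 and 6.41.

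Single probes next to the ends carried the highest A2Q levels on the arrays. The outermost probe of 13R (chromosome 13, 924234 to 924291 in the files' coordinates) was at 4.80 and 5.32 on the A2Q arrays and 5.54 and 6.34 on the pGPD-SIR3 arrays. Every A2Q value was below every pGPD-SIR3 value, but the difference of -0.88 did not pass the test (adjusted p = 0.089 by limma). The outermost probe of 7L was at 4.03 and 4.60 against 6.01 and 6.53, and passed it (-1.95, adjusted p = 0.000119). Most probes outward of ADH4 were missing on this arm, so the signal of that probe cannot be assigned to 7L. At 6R the values were 4.01 and 3.69 against 7.04 and 5.66 (adjusted p = 0.0153), and at 15L 3.95 and 3.37 against 6.40 and 5.82 (adjusted p = 0.0225). At 1L they were 4.01 and 3.95 against 6.81 and 5.12 (adjusted p = 0.0626), and at 11L 3.80 and 3.38 against 6.39 and 5.05 (adjusted p = 0.197). At these last 4 ends the groups were separate, and pGPD-SIR3 replicate 2 was below replicate 1.

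Not all outermost measured probes were this high. That of 9R, 0.27 kb from the outer limit of the annotated genes, was at 1.45 and 1.54 in A2Q and 7.03 and 7.09 in pGPD-SIR3. At 2R, 1.57 kb from that limit, the A2Q arrays were at -0.06 and 0.03 and the pGPD-SIR3 arrays at 6.34 and 6.04. These distances do not run to the telomere itself. Both probes may lie further in, so they do not show that A2Q signal was lacking at these ends. At 1R the outermost probe was at 1.48 and 2.89 in A2Q and 1.89 and 3.03 in pGPD-SIR3, so the groups overlapped there, and it was not measured on all arrays of the series.

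Of 371 probes within 10 kb of an end that were measured on all arrays, 357 were lower in A2Q, read beside 8.54% lower (3117) and 0.561% higher (205) among all 36515 probes tested. The other 14 included the outermost probes of 1L, 11L, 11R and 13R and 7 probes between 5 and 7 kb from the right ends of chromosomes 4, 5, 7, 8 and 12. Both A2Q arrays were above 1 at 11 of the 14, and both A2Q arrays were below both pGPD-SIR3 arrays at 12, as at 24.4% of all probes tested. At 11 of the 14 pGPD-SIR3 replicate 2 was below replicate 1. For example, a probe at 8R (chromosome 8, 556126 to 556185) was at 2.31 and 2.24 in A2Q and at 6.87 and 3.90 in pGPD-SIR3. The last 3 were probes at 11R, 9.54 to 9.92 kb from the end, where all 4 arrays lay between -0.46 and 0.35.

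To ask where A2Q signal recurred, sites were chosen on A2Q replicate 1 as probes above 1.5, merged within 1 kb, and read on replicate 2, which the choice did not use. The probe nearest the threshold inside was at 1.502 and outside at 1.499. Of 60 sites, 31 were above 1.5 on replicate 2. The 24 sites within 20 kb of an end lay at 19 ends, and 22 of them recurred, as did 3 of 3 at HML and HMR and 1 of 1 in the rDNA. Of 32 sites further in, 5 recurred. On replicate 1 the sites further in lay closer to the threshold, with a median of 1.78 against 2.89 near ends. The counts of recurring sites are therefore not on equal terms. The pGPD-SIR3 mean was above the A2Q mean at 24 of the 24 sites near ends.

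The sites near ends fell into a set within 2.5 kb of the end (10 of 10 recurred) and a set from 2.5 to 8 kb (10 of 11 recurred), with 3 further in to 20 kb. The second set and the lower maximum in the pooled profile draw on the same arrays and probes. They are therefore not separate observations. At 2L, 5.86 kb from the end, A2Q was at 3.98 and 4.00 and pGPD-SIR3 at 6.86 and 6.02. At 14L, 6.89 kb from the end and beside the Y' helicase gene YRF1-6, A2Q was at 4.00 and 3.55 and pGPD-SIR3 at 6.72 and 5.67. At 6L, 5.12 kb from the end, the values were 3.26 and 3.07 against 7.03 and 5.25. At 12L, 11.4 kb from the end, they were 3.90 and 3.86 against 6.91 and 5.35. The groups did not overlap at any of these 4 probes, and each passed the test with adjusted p between 0.00043 and 0.0325 (limma).

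Signal around these A2Q sites was narrow. Averaged over 27 sites (those near ends and at HML and HMR), A2Q was at 2.97 and 2.88 at the site's highest probe. At the 18 sites that had a probe 0.5 to 1 kb away it was at 1.27 and 1.55 there, and at the 18 with a probe 1 to 2 kb away at 0.39 and 0.44, so the distances compare different sets of sites. The pGPD-SIR3 arrays were at 6.24 and 5.59 at the highest A2Q probes and at 6.23 and 6.02 at 1 to 2 kb. The level at the highest probe was used to choose these sites on replicate 1, so only replicate 2 and the other arrays played no part in the choice. Replicate 2 shared the inferred slide with replicate 1 and may be a technical repeat of it.

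At the silent mating cassettes, Sir3-A2Q was found at the flanks of HML and over HMR and was lower than wild-type Sir3 throughout. Left of HML (chromosome 3, 11470 to 11529) A2Q was at 2.64 and 2.99, pGPD-SIR3 at 6.30 and 6.47, and WT at 8.16 and 7.72. Right of HML (14595 to 14654) A2Q was at 3.31 and 3.52, pGPD-SIR3 at 7.02 and 6.76, and WT at 7.55 and 7.64. The E silencer lies on the left side of HML and the I silencer on the right. No probe inside the HML genes was measured, and the groups were separate at both flanking probes.

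Between the left end of chromosome 3 and HML the A2Q signal was discontinuous. It was at 2.68 and 3.20 at 1.17 kb from the end, at 0.23 and 0.24 at 2.18 kb and at 0.34 and -0.04 at 9.26 kb. The pGPD-SIR3 arrays were at 6.39 and 6.27, 7.03 and 6.66, and 6.80 and 6.12 at the same probes. On the inner side of HML, A2Q had fallen to 0.55 and 0.59 at 15480 to 15539, where pGPD-SIR3 was at 6.32 and 5.99. YCL074W, a pseudogene of a Ty element that lies between the end and HML, was at 0.36 and 0.58 in A2Q, 7.02 and 6.54 in pGPD-SIR3, and 7.20 and 6.72 in WT (difference -6.31, SE 0.42, adjusted p = 4.78e-07 by limma).

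At HMR the highest A2Q probe (chromosome 3, 292717 to 292776) was at 2.18 and 2.33, against 6.63 and 6.34 in pGPD-SIR3 and 6.91 and 7.40 in WT. HMRA1, which encodes the silent copy of the a1 mating-type regulator, was the only gene of the 4 cassette genes with enough probes to be tested. It was at 1.50 and 1.44 in A2Q, 6.85 and 6.14 in pGPD-SIR3, and 6.94 and 7.52 in WT. Both groups were separate, and the difference was -5.02 (SE 0.56, adjusted p = 3.55e-05 by limma). Its A2Q level of 1.47 was the highest of all 4214 genes. From 2.61 to 4.82 kb on the telomeric side of the centre of HMR all A2Q probes were at 0.19 or below, while pGPD-SIR3 stayed above 5.6.

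**Figure D3:**
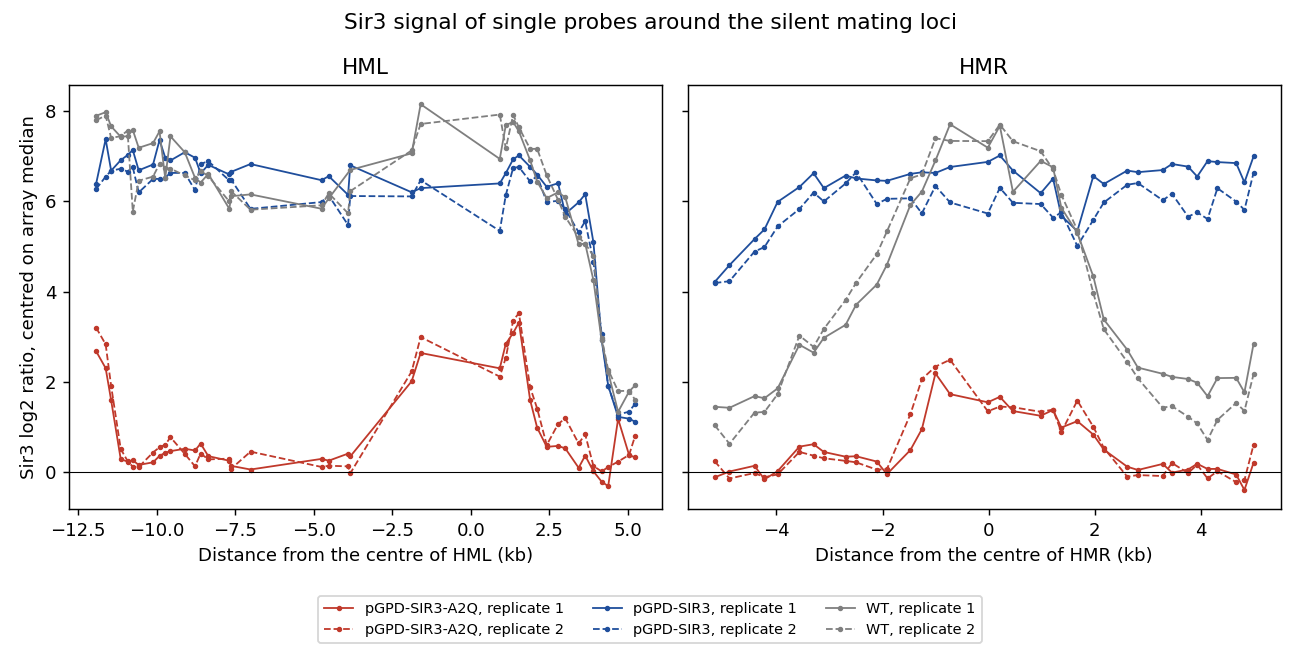
Sir3 level of single probes (log2 ratio centred on the array median, y axis) by distance from the centre of HML, from the left end of chromosome 3 inward, and of HMR (x axes, kb) on each array. Lines join measured probes and cross the unmeasured interior of HML. The A2Q lines peak beside HML at up to 3.52 and over HMR at up to 2.49, below every pGPD-SIR3 value at the same probes.

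Signal was also read at URA3, which both strains carry in the telomeric reporter. The mean over 4 URA3 probes was 1.32 and 1.64 on the A2Q arrays, 5.80 and 5.35 on the pGPD-SIR3 arrays, and 6.57 and 6.77 on the WT arrays. On the 8 arrays of strains without the reporter construct in which URA3 was measured, it lay between 0.16 and 0.61, so the A2Q level was above that range on both arrays. The URA3 probes cannot tell the reporter from the gene at its own locus. Inward of the reporter on 7L, 11 probes from ADH4 to 18.9 kb averaged 0.28 and 0.38 in A2Q, 6.76 and 6.30 in pGPD-SIR3, and 6.23 and 6.70 in WT. Outward of it, 41 to 43 of 48 probes were missing on each of these arrays.

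YFR057W, a gene next to the right end of chromosome 6, held 1 measured probe and was not in the gene test. Gene placement on chromosome 6 is uncertain (a weakly defined best shift of -375 bp with the A2Q arrays), as are the distances below 1 kb at 6R. The YFR057W probe was at 1.57 and 1.68 in A2Q, 6.82 and 6.63 in pGPD-SIR3, and 6.61 and 7.26 in WT. From the end inward at 6R, A2Q went from 4.01 and 3.69 at the outermost probe to 0.82 and 0.74 at 0.76 kb and 0.33 and -0.01 at 1.02 kb, where pGPD-SIR3 was at 6.34 and 6.02. In the rDNA, where Sir2 acts in a complex that lacks Sir3, a probe between RDN5-1 and RDN37-2 (chromosome 12, 459765 to 459824) was at 1.67 and 1.62 in A2Q, 5.00 and 4.17 in pGPD-SIR3, and 4.85 and 4.97 in WT. Its difference of -2.94 passed the test (adjusted p = 0.000689 by limma), and the groups did not overlap. Repeated rDNA units share their sequence, so the probe cannot be assigned to a unit.

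Across 4214 genes, 343 were lower in A2Q (8.14% of all tested) and 57 were higher (1.35%). With each array divided by its internal spread the split was 389 lower and 133 higher, and within the slide that held both groups it was 268 and 2, again against 1 pGPD-SIR3 array. Of the lower genes, 129 were subtelomeric (within 50 kb of an end), and their median difference was -2.46. The other 214 were internal and had a median difference of -0.64. All 57 higher genes were internal, and the differences ran from 0.25 to 0.44 with a median of 0.32. The median difference over all genes was 0.06. Both A2Q arrays were below both pGPD-SIR3 arrays in 923 genes (21.9% of all tested).

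The share of lower genes followed the distance from the end. It was 8 of 8 genes within 5 kb, 12 of 12 from 5 to 10 kb, 17 of 20 from 10 to 15 kb and 21 of 34 from 15 to 20 kb. It was 42 of 104 from 20 to 30 kb, 29 of 226 from 30 to 50 kb and 214 of 3810 beyond. At 30 of 32 ends at least 1 gene was lower, and the exceptions were 10R and 13R. The lower gene furthest from its end within 50 kb lay at a median of 31.04 kb, from 7.1 to 48.62 kb.

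Genes were also grouped by their level in pGPD-SIR3. The 23 genes above 6 in pGPD-SIR3 had a median A2Q level of 0.21, the 27 genes from 4 to 6 one of 0.14, and the 39 genes from 2 to 4 also one of 0.14. At the level of probes, 827 were above 4 on both pGPD-SIR3 arrays, and 70 of these (8.46%) were above 1 on both A2Q arrays. Their median was 6.12 in pGPD-SIR3 and 0.10 in A2Q. These genes and probes were chosen for their level on the pGPD-SIR3 arrays of the same comparison, so a lower A2Q level was largely fixed by the choice and the values are a description.

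**Figure D4:**
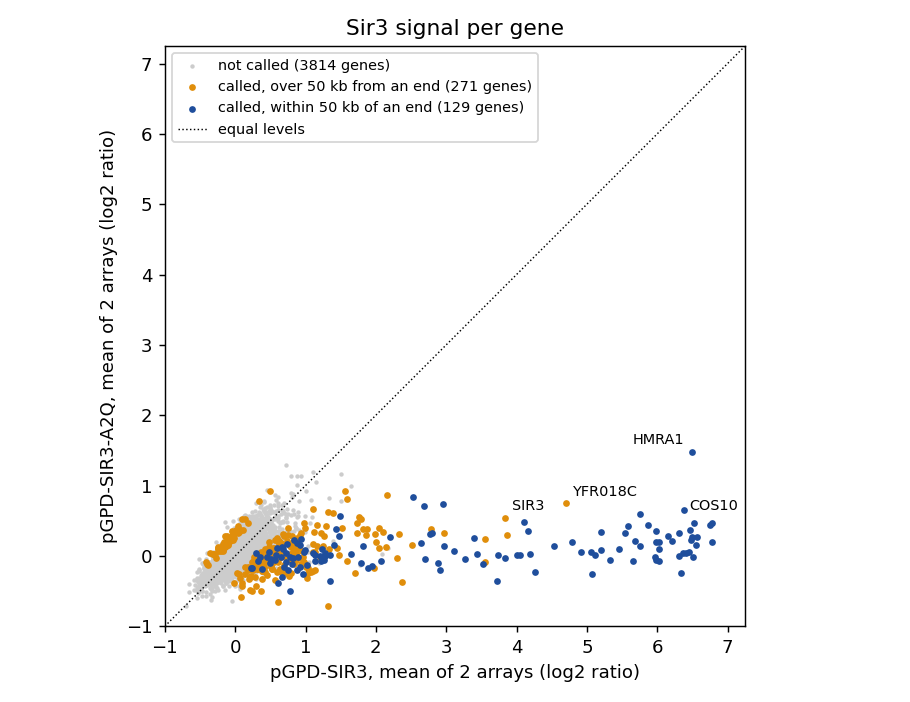
Mean Sir3 level of each gene in pGPD-SIR3 (x axis) and pGPD-SIR3-A2Q (y axis), both as log2 ratios over 2 arrays, coloured by whether the difference passed the test and by distance from an end. The genes spread along the x axis up to 6.78 while the highest A2Q level is 1.47.

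The genes with the largest falls, counted with at most 2 per chromosome arm and only where the arrays of the groups did not overlap, were subtelomeric genes of varied function. YCR102C, an uncharacterised gene at 3R, was at -0.06 and -0.44 in A2Q, 6.70 and 5.96 in pGPD-SIR3, and 1.64 and 0.86 in WT (difference -6.58, SE 0.43, adjusted p = 4.75e-07 by limma). ADH7, a medium-chain alcohol dehydrogenase gene on the same arm, was at 0.07 and 0.34 in A2Q, 7.24 and 6.33 in pGPD-SIR3, and 2.39 and 1.12 in WT (-6.58, adjusted p = 5.02e-06). BDS1, a sulfatase gene at 15L, was at -0.01 and -0.02 in A2Q and at 6.81 and 6.21 in pGPD-SIR3 (-6.53, adjusted p = 1.44e-07). In all of these the A2Q arrays were also below both WT arrays.

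The other falls named under that limit were YOR389W (-6.40), YOL162W (-6.40), COS10 (-6.31), YCL074W (above), YIR042C (-6.31), YFR054C (-6.29), RMD6, a gene required for sporulation (-6.25), IRC7, a cysteine desulfhydrase gene (-6.22), and SEO1, a gene of the allantoate permease family (-6.11). RMD6 was at 0.20 and 0.24 in A2Q and 6.67 and 6.28 in pGPD-SIR3. SEO1, covered by 7 probes, was at -0.07 and -0.09 in A2Q and 6.22 and 5.84 in pGPD-SIR3. The highest A2Q mean among these 12 genes was 0.47, in YCL074W. GIT1, also at 3R with a fall of -6.38, was left out by the limit of 2 per arm.

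**Figure D5:**
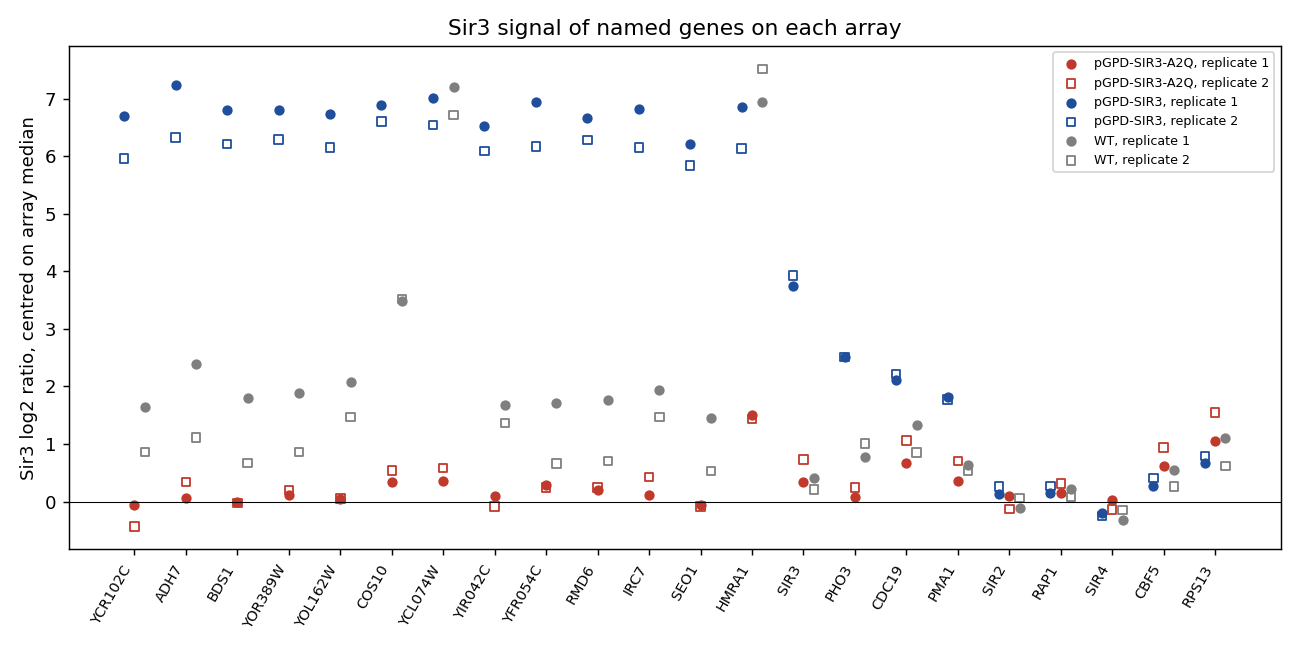
Sir3 level on each array (log2 ratio centred on the array median, y axis) for the 12 genes with the largest falls (at most 2 per arm), then for HMRA1, SIR3, PHO3, CDC19, PMA1, SIR2, RAP1, SIR4, CBF5 and RPS13 (x axis), with filled circles for replicate 1 and open squares for replicate 2. The highest A2Q point of the first 12 genes lies at 0.58, while their lowest pGPD-SIR3 point lies at 5.84.

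Gene families of the subtelomeres were described by counts, beside 343 lower and 57 higher of all 4214 genes. Near the ends the share of lower genes was larger whatever the family. It was 12 of 12 from 5 to 10 kb, 17 of 20 from 10 to 15 kb and 21 of 34 from 15 to 20 kb. The counts alone therefore do not set these families apart from their neighbours. Of the COS family, subtelomeric genes whose products act in sorting membrane proteins to the vacuole, 3 of 3 measured members (12 listed) were lower (median difference -6.05). COS10 was at 0.33 and 0.54 in A2Q, 6.90 and 6.60 in pGPD-SIR3, and 3.48 and 3.52 in WT. COS8 differed by -6.05 and COS9 by -5.62. The A2Q mean of the 3 genes ran from 0.36 to 0.47.

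Of the subtelomeric sugar genes, 7 of 8 measured members were lower (median -3.12), and the invertase gene SUC2 did not pass the test. MAL33, an activator of the maltose genes, was at -0.20 and 0.07 in A2Q and 5.91 and 5.39 in pGPD-SIR3 (-5.72, adjusted p = 2.59e-05 by limma). The maltose permease gene MAL31 differed by -4.86 and the isomaltase gene IMA5 by -3.72. All 3 measured aryl-alcohol dehydrogenase genes were lower, AAD3 by -5.88, AAD6 by -3.81 and AAD4 by -2.46.

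Among iron uptake genes 7 of 15 were lower and 1 higher (median -0.25). The siderophore transporter genes ARN2 (-5.99) and ENB1 (-4.59) and the ferric reductase gene FRE2 (-3.99) differed most. ARN2 was at 0.08 and -0.12 in A2Q and 6.30 and 5.64 in pGPD-SIR3. FTH1, a vacuolar iron transporter gene 176 kb from an end, was the higher one, by 0.35, a call lost when either A2Q array or pGPD-SIR3 replicate 2 was left out (0.24 without the latter). Among 5 flocculin genes 1 was lower, the lectin gene FLO9, at 0.96 and 0.52 in A2Q and 3.26 and 2.64 in pGPD-SIR3 (-2.21, adjusted p = 0.00132 by limma). Of the seripauperin and TIR/DAN mannoprotein genes 0 of 4 measured passed the test (median -0.27). Members of the Y' helicase and thiamine lists (8 each) had too few probes to be tested.

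Of the phosphate regulon, 4 of 8 measured genes were lower (median -0.53). The phosphate transporter gene PHO89, 13.8 kb from 2R, was at 0.01 on both A2Q arrays and at 4.43 and 3.66 in pGPD-SIR3 (-4.03, adjusted p = 0.000539 by limma). The acid phosphatase genes PHO3 and PHO5, neighbours 381 to 383 kb from an end, differed by -2.35 and -1.56. PHO3 was at 0.08 and 0.24 in A2Q, 2.52 and 2.51 in pGPD-SIR3, and 0.78 and 1.01 in WT.

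Away from the ends, 50 of the 214 lower genes differed by more than 1. As a description of genes chosen by that difference, their median level was 0.11 in A2Q, 1.73 in pGPD-SIR3 and 0.59 in WT, and 49 of them were below 1 on both A2Q arrays. The ones named next were chosen after their values were seen. YFR018C, 86.1 kb from an end, was at 0.56 and 0.94 in A2Q, 4.87 and 4.53 in pGPD-SIR3, and 4.02 and 3.76 in WT (-3.95, SE 0.20, adjusted p = 1.02e-07 by limma). The glucokinase gene GLK1 was at -0.31 and 0.12 in A2Q, 3.51 and 3.60 in pGPD-SIR3, and 1.62 and 1.60 in WT. CAR2, an ornithine aminotransferase gene, was at 0.14 and 0.44 in A2Q and 3.95 and 3.79 in pGPD-SIR3. YMR244W differed by -3.32, FMT1 by -2.74, PTK1 by -2.64 and the proline permease gene PUT4 by -2.03. The A2Q and pGPD-SIR3 values were separate in these 7 genes, as in 21.9% of all genes tested in that direction.

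The SIR3 gene, whose promoter is GPD in both strains, carried a high Sir3 level in pGPD-SIR3 and a low one in A2Q. Over 11 probes it was at 0.34 and 0.73 in A2Q, 3.75 and 3.93 in pGPD-SIR3, and 0.41 and 0.21 in WT. No A2Q value reached a pGPD-SIR3 value, and the difference was -3.30 (SE 0.16, adjusted p = 1.02e-07 by limma). Of the 16 genes for silencing and telomere proteins, SIR3 was the 1 lower and ORC1, for a subunit of the origin recognition complex, the 1 higher (0.31), a call lost when A2Q replicate 1 or either pGPD-SIR3 array was left out. SIR2 (-0.21), SIR1 (-0.04), RAP1 (0.02) and SIR4 (0.17) did not pass the test. PPR1, deleted by the labels of both strains, nonetheless had 9 probes with a ratio on every array, at 0.05 and -0.03 in A2Q and 0.13 and 0.20 in pGPD-SIR3, so the arrays do not show the deletion. A ratio alone does not show how much PPR1 DNA was present, and its difference of -0.15 did not pass the test.

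Of 13 highly transcribed glycolytic and elongation genes, 4 were lower and 0 higher (median -0.33), beside 8.14% lower of all genes: CDC19, PMA1, ENO2 and PDC1. The pyruvate kinase gene CDC19 was at 0.67 and 1.06 in A2Q, 2.11 and 2.22 in pGPD-SIR3, and 1.33 and 0.85 in WT (-1.30, adjusted p = 0.00166 by limma). PMA1, for the plasma membrane proton pump, was at 0.35 and 0.70 in A2Q and 1.81 and 1.77 in pGPD-SIR3 (-1.26, adjusted p = 1.74e-05). The enolase gene ENO2 differed by -0.78 (adjusted p = 0.0227), a call lost when either A2Q replicate 1 or a pGPD-SIR3 array was left out.

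After HMRA1, the highest A2Q gene levels were over genes far from the ends. The ribosomal protein genes RPS13 (1.30), RPL3 (1.20), RPL16B (1.14), RPL28 (1.14), RPL10 (1.13) and RPP0 (1.05) and the elongation factor gene YEF3 (1.17) had the next 7 levels under the rule for named genes, and none passed the test against pGPD-SIR3. RPS13 was at 1.05 and 1.55 in A2Q, 0.66 and 0.80 in pGPD-SIR3, and 1.10 and 0.62 in WT. Of 68 ribosomal protein genes 0 were lower and 2 were higher, RPL22B (0.43) and RPL17B (0.40), beside 8.14% lower and 1.35% higher of all genes. Each of the 2 calls was lost in 3 of the 4 fits that left out 1 array, and RPL22B was at 0.27 without pGPD-SIR3 replicate 2. Their median difference was 0.26, beside 0.06 over all genes.

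Under the same limit, the largest of the 57 higher calls were CBF5, for the pseudouridine synthase of box H/ACA particles (0.44), CLG1, for a cyclin-like protein (0.44), RPL22B, RPC40, for a subunit shared by RNA polymerases I and III (0.42), BUD16 (0.41), RPL17B, ERD1 (0.39) and PAN3 (0.39). CBF5 was at 0.62 and 0.94 in A2Q, 0.27 and 0.41 in pGPD-SIR3, and 0.55 and 0.26 in WT (adjusted p = 0.0438 by limma). RPC40 was at 0.45 and 0.59 in A2Q and 0.06 and 0.15 in pGPD-SIR3 (adjusted p = 0.00275). Separate arrays were a condition for naming both genes. The higher calls depended on single arrays: 8 were made without pGPD-SIR3 replicate 2 (7 of them among the 57), 18 without pGPD-SIR3 replicate 1 (8), 28 without A2Q replicate 2 (11) and 48 without A2Q replicate 1 (14). Of the 2 higher calls made within that slide, 1 was among the 57, and of the 268 lower calls there 241 were among the 343.

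Lower probes away from the ends were not spread evenly over the annotation. Among 32414 internal probes 4.92% were lower. In intergenic regions between divergent genes, which hold promoters on both sides, the share was 15.7% (343 of 2180), in tandem intergenic regions 9.33%, in convergent ones 6.21%, and in coding sequence 3.04%. The median level of divergent probes was -0.19 and -0.17 in A2Q and -0.08 and -0.05 in pGPD-SIR3, and that of coding probes 0.06 on both A2Q arrays and 0.00 and -0.01 in pGPD-SIR3. These shares were counted without a test of the difference between classes, and neighbouring probes share fragments.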

How the data were processed

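Sir3 ChIP-chip was read from 19 two-colour arrays. The deposited ratio is of Cy5 (precipitated DNA, per the labels) over Cy3 (input DNA). How the authors scanned, background-corrected and filtered spots, and their genome build, was not given in the sources used here. Of 45220 spots, 41480 were chromosomal probes. The unfilled ratio was taken to log2 and centred on each array's median, without loess or quantile normalization, and none of these 4 arrays had a ratio at or below 0. Precision is limited by the number of arrays, 2 a group.

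Genes were placed by R64 coordinates. The shift that best aligned coding positions with the probes lay within 75 bp for 13 chromosomes. On chromosome 6 it was weakly defined, at -375 bp with the A2Q arrays (r = 0.10) and -25 bp with the dot1 pGPD-SIR3 arrays (r = 0.12), and no wider margin was used there. A gene's level was the mean of its probes lying 100 bp or more inside it, with a margin of 450 bp at the upper boundary on chromosomes 10 and 11. It needed 2 probes with a ratio on all 19 arrays, which left 4214 genes and 21768 probes. Distance to a left end is the coordinate itself, and distance to a right end is measured from the outermost annotated gene or probe.

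limma 3.58.1 in R 4.3.3 fitted a mean for each group to all 19 arrays (8 residual degrees of freedom and, for genes, 4.28 prior ones). The scripts were checked on simulated data. Tables were made with pandas 2.3.3 and numpy 2.4.6 under Python 3.11.15, figures with matplotlib 3.10.9. The groups, gene lists and tests were chosen with earlier results of these data known. The text names the 12 largest falls and 8 largest rises past 0.05 without overlap of arrays (at most 2 per arm), the 3 largest changes in each list and direction, the highest A2Q levels, the 5 largest zone and gradient changes in each direction, and a fixed set of silencing and altered loci.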

Additional observations from a re-analysis of the deposited data

How the results depend on the processing

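None of the 343 lower genes changed sign in the alternative runs that fitted them. These runs reuse the same arrays, and the 343 genes had separate arrays in the main fit, so an unchanged sign is not independent support. Of the 3117 lower probes, 4 had the opposite sign with the filled ratio. With 1 of the 4 arrays left out, 232 to 267 genes, 99 to 102 zones and 2449 to 2674 probes were lower. Such a fit assumes that the lone array varies like the other groups. With at least 4 probes a gene, 191 of 2523 genes were lower, among them 181 of the 181 calls still tested. The 57 higher genes became 12 in a fit of the 4 arrays alone, 0 in the first deposit of 12 arrays (limma, 159 higher at an unadjusted p under 0.05), 133 after scaling by internal spread, 27 after centring on internal probes, 2 within 1 slide, 10 with the probes of the 4 arrays, and 8 to 48 with an array left out (lowest without pGPD-SIR3 replicate 2). The 205 higher probes became 102 in the fit of the 4 arrays, 7 in the first deposit, 375 after scaling and, with slide as a fixed block (an alternative chosen after seeing the data), 380, and 55 to 197 with an array left out, lowest without pGPD-SIR3 replicate 2 (55) and replicate 1 (108). Higher zones became 2 with slide as a random block and stayed at 0 in the leave-outs. Gradients were 9 to 12 lower and 2 higher in the leave-outs. Covered length was 68 to 70 kb in A2Q and 527 to 555 kb in pGPD-SIR3 on single arrays; it was 112.5 and 625 kb at 2 scaled deviations, 48.5 and 492.5 kb at 4, 49.5 and 492.5 kb at a fixed level of 1, and 67.5 and 566 kb with the filled ratio. The cause of these shifts was not tested. The replicate numbers did not pair the arrays (correlation of deviations 0.070), and with the replicate block 338 genes were lower and 45 higher, 108 zones were lower, and gradients stayed at 13 and 3. With slide as a random block 369 genes were lower and 83 higher, and with it fixed 370 and 60. No named gene reversed, but these runs too reuse the arrays on which the genes were chosen.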

Other observations

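Among the 5 A2Q sites further than 20 kb from an end that recurred on replicate 2, 1 was the URA3 probe. The others lay beside the Ty element gene YCL019W on chromosome 3 (A2Q 1.72 and 1.73, pGPD-SIR3 2.34 and 2.83), between SNR39B and RPL7A on chromosome 7 (2.70 and 2.40, against 1.43 and 4.66), between YLR036C and PAU23 on chromosome 12 (1.79 and 1.53, against 2.55 and 2.34) and between TUS1 and TDA5 on chromosome 12 (1.97 and 1.53, against 2.24 and 2.74). None of these 4 passed the test, and at the chromosome 7 site the pGPD-SIR3 arrays lay on both sides of the A2Q arrays.

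Probes near tRNA genes away from the ends had a median level of 0.19 and 0.32 in A2Q, 0.13 and 0.16 in pGPD-SIR3, and 0.10 and 0.24 in WT. Of 813 such probes, 43 were lower and 33 higher in A2Q (5.29% and 4.06%, beside 4.92% and 0.614% of all internal probes). Both A2Q medians were above both pGPD-SIR3 medians, the WT medians overlapped both groups, and no test of the class was made.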
